A study of Rattus norvegicus with 2 samples.

Results

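Complement genes were followed through the cells of skeletal muscle from a rat and from a rat-mouse chimera. The 9 genes were the 3 chains of C1q (C1qa, C1qb and C1qc), the central component C3, factor B (Cfb), factor D (Cfd), the C1 inhibitor (Serping1) and the receptors for the C3a and C5a fragments (C3ar1 and C5ar1). They were taken by name, without the species suffix that the feature list adds. A rat count row existed for 8 of the 9 genes among 23373 rat genes, and a mouse row for all 9 among 25906 mouse genes. C5ar1 had a mouse row only, and its level in rat cells was not analysed here.

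Complement is a cascade of blood and tissue proteins that tags microbes and dying cells. C1q opens the classical pathway by binding antibody or cell debris, C3 is the protein that every pathway cleaves, and factors B and D build and activate the enzyme of the alternative pathway. The C1 inhibitor blocks the proteases that C1q carries, while C3a and C5a draw in and activate myeloid cells. Liver makes most of the circulating proteins, and tissue macrophages are the main source of C1q. Adipose tissue is known for factor D, also called adipsin.

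The study asked which muscle cells mouse iPSCs form in a rat, and compared 1 chimera, of 7 obtained, with 1 Sprague-Dawley (SD) rat by scRNA-seq. The chimera arose from an SD rat morula that received mouse iPSCs carrying the Dmd-mdx mutation, edited by CRISPR to restore its reading frame, and a Pax7-nGFP reporter. The SD rat carried none of these. The study text calls the chimeras adult, and no age of either animal is given in the sources used here. Muscle of the whole body was pooled, digested with collagenase and sorted for live cells by a viability dye, and tags were counted at the 3′ end of polyadenylated RNA with unique molecular identifiers (UMIs).

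Cells fell into 3 populations, namely 8816 SD rat cells, 8230 rat cells of the chimera (at most 20% of UMIs on mouse genes) and 1847 mouse cells of the chimera (at least 80%). Another 1653 chimera barcodes lay between these limits and were kept apart. The libraries held 70957559 UMIs (SD rat) and 118872850 UMIs (chimera), and the kept cells had medians of 6276, 8588 and 6948 UMIs in the order above. Only 43 barcode sequences occurred in both libraries. Each group had 1 library, so no difference has a replicate check and no test was possible. Levels are UMIs per 1000000 UMIs of summed cells (CPM), and brackets give exact 95% Poisson or binomial (Clopper-Pearson) intervals, which cover counting error only. Class names end in "-like" because they were rebuilt from marker genes, with every complement gene left out of clustering and naming. The macrophage-like clusters raised 13 of 14 macrophage markers in both rat populations, among them F13a1, Cd163 and Trem2. Fibro-adipogenic progenitor (FAP)-like clusters were led by genes such as Fgf7 and Smoc2.

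Promoters in the RefSeq tables matched 5 of the 9 genes in the rat (C1qa, C1qb, C3, C3ar1 and Cfd). Those of C1qa and C1qb are shown because these neighbouring genes had almost the same pattern over the clusters. Each is the 250 bases before the start in build GRCr8, a later build than the mRatBN7.2 of the counts, at chr5:154419934-154420183 and chr5:154407828-154408077, both on the minus strand. Capitals mark the letters GAGGAA on either strand, a purine-rich core of the kind bound by the myeloid factor PU.1.
C1qa: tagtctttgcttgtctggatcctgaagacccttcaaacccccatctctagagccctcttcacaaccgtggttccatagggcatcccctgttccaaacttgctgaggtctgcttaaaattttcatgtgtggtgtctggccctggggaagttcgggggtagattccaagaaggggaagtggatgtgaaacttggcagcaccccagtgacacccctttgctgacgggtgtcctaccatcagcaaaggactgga
C1qb: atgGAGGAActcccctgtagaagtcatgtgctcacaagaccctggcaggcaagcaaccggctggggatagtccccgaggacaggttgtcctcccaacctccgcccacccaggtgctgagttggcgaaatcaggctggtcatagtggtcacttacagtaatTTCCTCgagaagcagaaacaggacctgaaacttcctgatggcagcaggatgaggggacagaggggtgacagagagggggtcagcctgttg
The letters occurred at 2 places in C1qb and at 0 in the other 4 promoters, while 7812 of 33469 rat promoters of this length held them (23.3%). TATAAA, the letters of a TATA box, occurred in none of the 5 and in 12.9% of all.

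C1q, the recognition protein of the classical pathway, came almost entirely from macrophage-like cells. The rat identifiers of its chains are ENSRNOG00000012807 (C1qa), ENSRNOG00000012749 (C1qb) and ENSRNOG00000012804 (C1qc). In the SD rat, 370 macrophage-like cells had 4479 CPM of C1qa (4407 to 4552), 4102 of C1qb (4033 to 4171) and 4147 of C1qc (4078 to 4217). In the chimera, 589 rat macrophage-like cells had 3761 CPM of C1qa (3711 to 3810), 2915 of C1qb (2871 to 2958) and 3043 of C1qc (2998 to 3088). C1qa was found in 97.8% of these cells in the SD rat and 95.2% in the chimera, and in 95.7% and 87.2% after thinning each cell to 1000 UMIs. They made up 4.20% (SD rat) and 7.16% (chimera) of the rat cells, yet they held 97.4% and 89.3% of all C1q UMIs (42133 of 43266 and 57495 of 64363).

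Nearly every macrophage-like cell carried the complete set of chains, which are assembled into 1 protein. All 3 chains were found in 358 of 370 SD rat cells and in 550 of 589 chimera rat cells. The median cell held 100 C1q UMIs in the SD rat and 89 in the chimera, with quartiles of 66 to 149 and 51 to 133. C1qa made up 35.2% of the C1q UMIs in the SD rat and 38.7% in the chimera. Cells without any C1q UMI were 6 and 23. A further 5.64% of the C1qa UMIs of the chimera rat cells lay in cycling cells, where 30 of 145 held all 3 chains, against 1 of 110 in the SD rat.

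**Figure D1:**
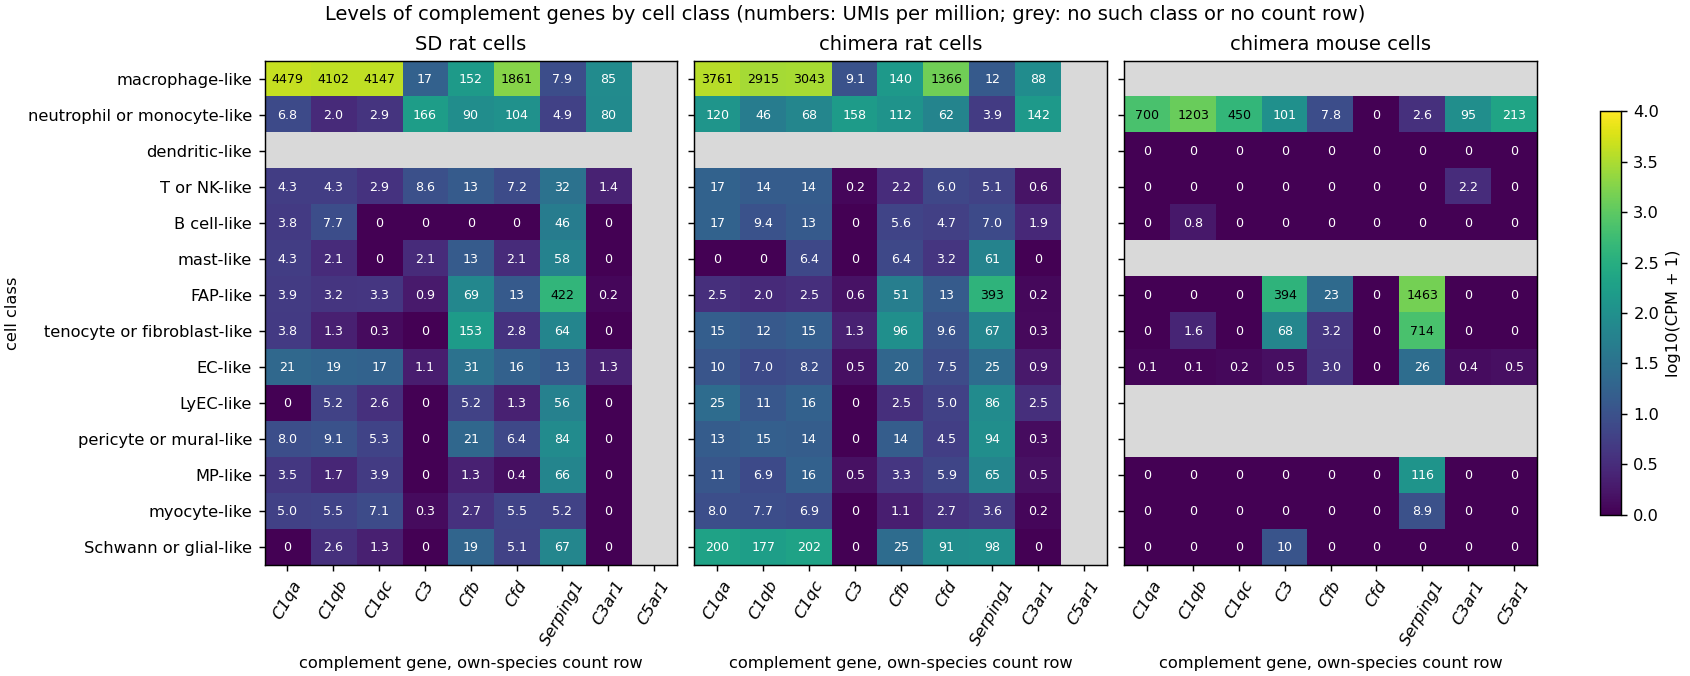
Levels of the complement genes in each cell class of the SD rat cells, chimera rat cells and chimera mouse cells, with colour for log10(CPM + 1) and the value printed in each field. C1q and Cfd stand out in rat macrophage-like cells, Serping1 in FAP-like cells of all 3 populations, and C3 in rat neutrophil or monocyte-like cells and mouse FAP-like cells.

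Factor D (Cfd, ENSRNOG00000033564), the protease that activates factor B, followed C1q and was found mainly in macrophage-like cells too. It reached 1861 CPM there in the SD rat (1815 to 1908) and 1366 in the chimera (1336 to 1396). Of all Cfd UMIs, 87.4% (of 7047) and 84.5% (of 9557) lay in these cells. FAP-like cells had 12.7 CPM (11.6 to 13.9) in the SD rat and 13.2 (12.0 to 14.5) in the chimera, and 6.66% and 7.47% of them had a UMI. Within the FAP-like cells, the clusters led by Gdf10 and Fgf7 had the highest values, 23.2 and 24.9 CPM, and the other clusters 3.86 to 12.5 and 4.26 to 10.2. No cluster was named adipocyte-like, so the cell type best known for factor D was not measured.

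At a finer division of the clusters, the macrophage-like cells of the chimera rat came apart into groups that differed in both genes. A group of 224 cells led by F13a1 and Cd163, a scavenger receptor of resident macrophages, had 5608 CPM of C1qa and 2117 of Cfd. The single SD rat group of 361 cells, led by F13a1 and Ltc4s, had 4557 and 1930. A chimera group of 296 cells led by Trem2, a lipid-sensing receptor, had 3153 and 1018. The 90 cells led by Ereg and Nos2, the inducible nitric oxide synthase, had 1380 and 586.5. Trem2 itself was at 275, 290, 192 and 95.2 CPM in the 4 groups, in the order given. The group named by Trem2 thus did not have the most of it, and its lower C1qa and Cfd cannot be tied to high Trem2. The median C1q count per cell was 126, 100, 70 and 24.5 in these 4 groups. The 90 cells of the last group were deeper than the other 3 (median 15230 UMIs), 23 of them held no C1q UMI, and they had raised 13 macrophage and 8 neutrophil or monocyte markers. They stood apart in C3 as well, with 79.1 CPM (65.2 to 95.1) against 5.56 and 6.99 in the other chimera groups, and had 201 CPM of Cfb (178 to 226) against 77.8 in the Trem2 group and 182 (165 to 201) in the F13a1 and Cd163 group, whose interval overlapped. A cluster of 31 cycling cells with 13 macrophage markers had 2675 CPM of C1qa and 476 of Cfd. Cells led by Ccl17 and Slpi, which stayed unnamed, had little C1q: 125 CPM of C1qa in 198 chimera rat cells and 79.7 in 91 SD rat cells.

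**Figure D2:**
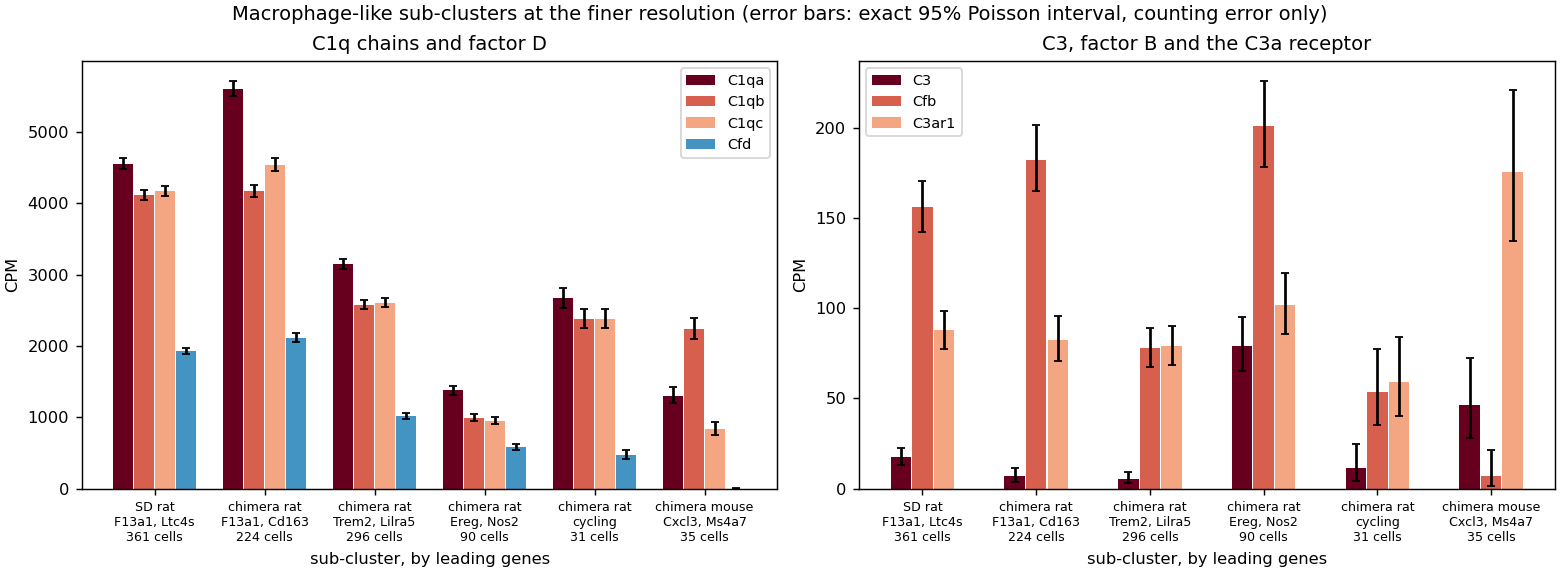
Bars give CPM of C1qa, C1qb, C1qc and Cfd (left) and of C3, Cfb and C3ar1 (right) in the macrophage-like sub-clusters. Names give population and leading genes, and error bars are exact 95% Poisson intervals. The chimera rat sub-cluster led by Trem2 had 192 CPM of Trem2, less than the one led by F13a1 and Cd163 (275). Among the rat sub-clusters C1qa ranges from 5608 in the chimera cells led by F13a1 and Cd163 down to 1380 in those led by Ereg and Nos2, which have the highest C3 of them (79.1), and the mouse bars show a higher C1qb than C1qa and no Cfd.

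Mouse cells held C1q of their own in a small group of myeloid cells. The 67 mouse neutrophil or monocyte-like cells had 700 CPM of C1qa (642 to 762), 1203 of C1qb (1127 to 1283) and 450 of C1qc (404 to 500), with 1799 of the 1807 mouse C1q UMIs. This cluster raised 10 markers of its own list and 10 of the macrophage list. All 3 chains were found in 23 of the cells and none in 37. At the finer division it came apart into 35 macrophage-like cells led by Cxcl3 and Ms4a7 (1304, 2242 and 838 CPM) and 32 cells led by S100a8 and S100a9, genes of neutrophils and monocytes, which held 0 UMIs of all 3 chains. C1qb made up 51.1% of the mouse C1q UMIs, while C1qa was the largest share in rat cells. Mouse and rat rows are different gene models, so this does not compare the species.

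No UMI of factor D was counted in the mouse cells. The mouse Cfd row had 0 UMIs in 1847 cells, where 3 counts would be 1.56 CPM in the 128 FAP-like cells and 3.92 in the 67 neutrophil or monocyte-like cells. In the whole chimera library the row had 2 UMIs, both in 1 barcode. Whether this row counts the gene well in the combined reference was not tested. The mouse cells therefore cannot be said to lack factor D. No UMI of chimera rat cells fell on the mouse Cfd row, beside 9557 on the rat row.

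C3 (ENSRNOG00000046834 in rat, ENSMUSG00000024164 in mouse), the protein on which the pathways meet, had different sources in rat and mouse cells. In the SD rat, neutrophil or monocyte-like cells had 166 CPM (142 to 193, 154 cells), macrophage-like cells 16.6 (12.5 to 21.6) and FAP-like cells 0.935 (0.648 to 1.31). The chimera rat cells gave the same order, with 158 CPM (142 to 175, 356 cells), 9.13 (6.86 to 11.9) and 0.552 (0.327 to 0.872). In mouse cells FAP-like cells came first, with 394.5 CPM in 128 cells (367 to 424). Neutrophil or monocyte-like cells had 101 (79.5 to 126) and 40 tenocyte or fibroblast-like cells 67.7 (48.8 to 91.5). That mouse neutrophil or monocyte-like class also held macrophage-like cells. At the finer division, its 32 cells led by S100a8 and S100a9 had 164 CPM of C3 (124 to 212). Its 35 macrophage-like cells had 46.3 (27.9 to 72.3). FAP-like cells held 11.5% of the C3 UMIs in the SD rat (34 of 296), 3.85% in the chimera rat cells (18 of 468) and 85.5% in the mouse cells (760 of 889).

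The mouse C3 signal was shared by many FAP-like cells. C3 was found in 51 of the 128 (39.8%, 31.3 to 48.9, median depth 14770 UMIs), with at most 66 UMIs in 1 cell. Thinned to 1000 UMIs per cell, 18.4% of mouse FAP-like cells had C3, against 0.125% in the SD rat and 0.0772% in the rat cells of the chimera. The mouse and rat rows of C3 are different gene models, so the size of this gap does not compare the species. As a background, 3 of 982 mouse endothelial (EC)-like cells (0.305%, median depth 6729 UMIs) had a C3 UMI. Of the C3 UMIs in rat cells, 4.49% lay on the mouse row (22 UMIs, beside 468 on the rat row).

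**Figure D3:**
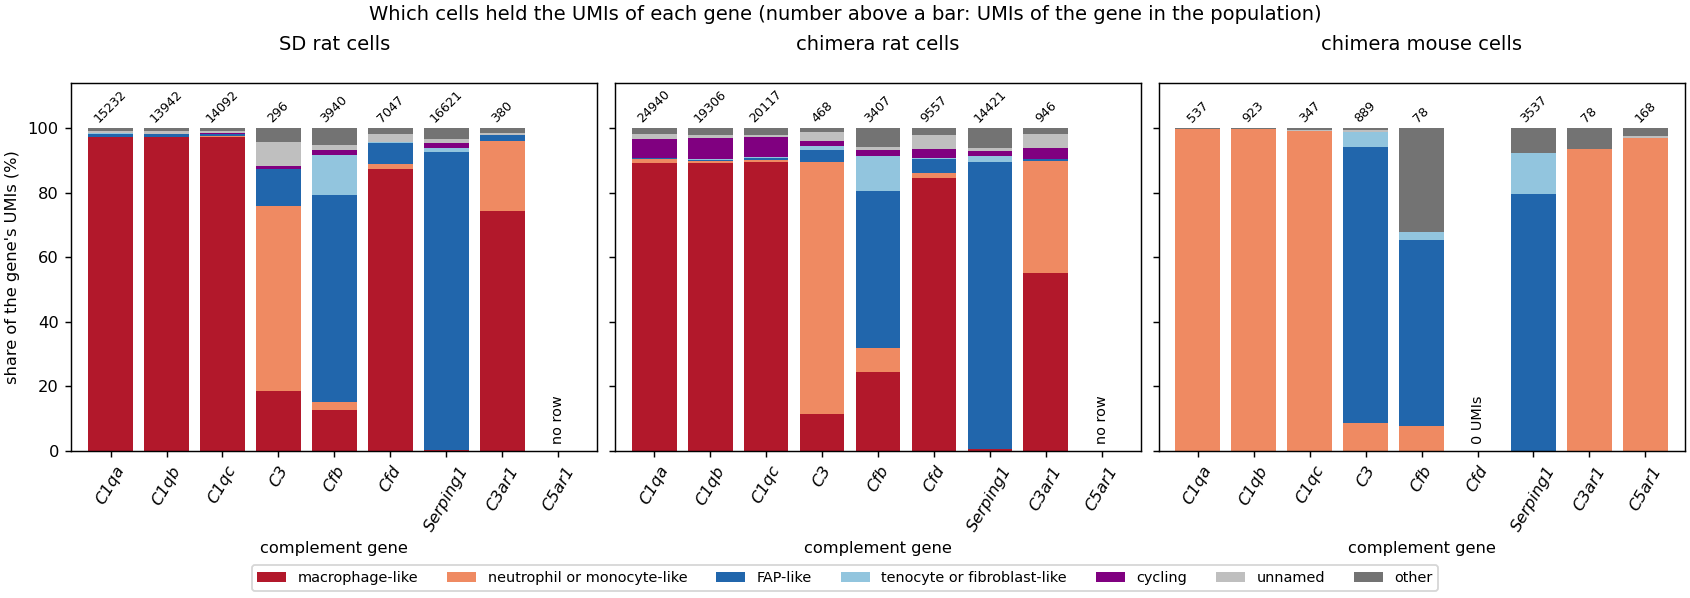
Bars divide the UMIs of each complement gene (percent, y axis) among macrophage-like, neutrophil or monocyte-like, FAP-like, tenocyte or fibroblast-like, cycling, unnamed and other cells in the 3 populations, with the number of UMIs above each bar. C1q and Cfd are mainly macrophage-like in rat cells, Serping1 is mostly FAP-like in every population, and C3 is FAP-like for 85.5% of its UMIs in mouse cells against 11.5% in the SD rat.

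Factor B (Cfb, ENSRNOG00000051235), the alternative pathway's protease precursor, was spread over stromal and myeloid cells of the rat. In the SD rat, tenocyte or fibroblast-like cells had 153 CPM (140 to 168) and macrophage-like cells 152 (139 to 166), with intervals that overlapped. Neutrophil or monocyte-like cells followed with 89.8 (72.4 to 110) and FAP-like cells with 69.4 (66.8 to 72.2), and EC-like cells had 30.9 (25.5 to 37.1). The chimera rat cells put macrophage-like cells first with 140.5 CPM (131 to 150), then neutrophil or monocyte-like cells with 112 (98.9 to 127), tenocyte or fibroblast-like cells with 96.5 (86.9 to 107) and FAP-like cells with 50.6 (48.2 to 53.1). Because FAP-like cells were many, they held 64.1% and 48.4% of the Cfb UMIs. Mouse FAP-like cells had 23.4 CPM (17.0 to 31.3) from 45 UMIs.

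Among FAP-like clusters, Cfb differed more than the counting error in both rat populations. The cluster led by Fgf7 and Gdf10 had 111 CPM in the SD rat (105 to 116, 1142 cells), and a cluster led by Pla2g2a and Gdf10 had 79.8 in the chimera (74.8 to 85.1, 955 cells). The cluster led by Grm8, a glutamate receptor gene, and Smoc2 had 37.5 in the SD rat (34.1 to 41.2, 1111 cells) and 22.2 in the chimera (998 cells). Clusters led by Gap43 and Akr1c3 lay between, with 52.6 and 55.6. The populations were clustered separately, and whether clusters paired in this way are the same kinds of cells was not tested. With this pairing, the order of the 3 was the same in both libraries.

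Serping1 (ENSRNOG00000007457), the inhibitor of the C1r and C1s proteases, was a gene of FAP-like cells in every population. Levels were 422 CPM in the SD rat (416 to 429), 393 in the chimera rat cells (386.5 to 400.1) and 1463 in the mouse cells (1410 to 1518). A UMI was found in 90.8%, 91.7% and 96.9% of these cells at median depths of 10930, 12140 and 14770 UMIs, against 3.83%, 6.66% and 9.37% of EC-like cells (2591, 4060 and 6729 UMIs). Thinned to 1000 UMIs, the FAP-like shares were 32.9%, 30.8% and 68.0%. Mouse and rat rows are different gene models, so neither levels nor shares of Serping1 compare the species. FAP-like cells held 92.4% of 16621, 89.0% of 14421 and 79.7% of 3537 Serping1 UMIs.

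Unlike Cfb, Serping1 was even among rat FAP-like clusters, from 362 to 462 CPM in the SD rat and from 373 to 412 in the chimera. Tenocyte or fibroblast-like cells had 64.5 CPM (55.9 to 73.9) and 67.4 (59.5 to 76.1) in the rat populations, and 714 (649 to 784) in 40 mouse cells. That mouse cluster raised 12 tenocyte or fibroblast markers and 9 FAP markers. Myogenic progenitor (MP)-like cells had 66.2 and 65.1 CPM in the rat populations and 116 (86.3 to 152) in 46 mouse cells. Among mouse EC-like clusters, the one led by Selp and Ackr1, genes of venules, had 128 CPM (109 to 149), against 26.3 over all EC-like cells. Rat macrophage-like cells were low, with 7.85 and 12.3 CPM.

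The C3a receptor C3ar1 (ENSRNOG00000009211) lay in the myeloid cells. Macrophage-like cells had 85.5 CPM in the SD rat (75.8 to 96.1) and 87.9 in the chimera rat cells (80.5 to 95.8), in 41.4% and 42.8% of cells. Neutrophil or monocyte-like cells had 80.04 CPM (63.7 to 99.4) and 142 (127 to 159), in 28.6% and 46.1% of cells at median depths of 5350 and 5326 UMIs. FAP-like cells, which should lack it, had a UMI in 0.156% and 0.193% of cells. Mouse neutrophil or monocyte-like cells had 95.5 CPM of C3ar1 (74.8 to 120). The finer division put 72 of its 78 mouse UMIs in the 35 cells led by Cxcl3 and Ms4a7 (176 CPM).

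C5ar1 (ENSMUSG00000049130), the receptor for C5a, was measured through its mouse row. It was found in 47 of 67 mouse neutrophil or monocyte-like cells, at 213 CPM (182 to 248.5), with 163 of the 168 mouse-cell UMIs. Both finer groups had it, with 288 CPM in the macrophage-like and 127 in the S100a8 cells. In chimera rat cells the mouse row gathered 40 UMIs in 35 of 589 macrophage-like cells (6.76 CPM, 4.83 to 9.21) and 9 in neutrophil or monocyte-like cells. With no rat row, these UMIs say nothing of the level in rat cells.

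In several classes other than macrophage-like, most C1q UMIs sat in a few cells that held all 3 chains. In chimera rat cells, 8 of 356 neutrophil or monocyte-like cells held 94.8% of the C1q UMIs of their class, 4 of 99 Schwann or glial-like cells held 99.5%, and 5 of 701 T or NK-like cells held 80.9%. In the SD rat, 3 of 1071 EC-like cells held 67.9% and 8 of 3199 FAP-like cells 44.7%. The share was lower in SD rat myocyte-like (29.3%) and pericyte or mural-like cells (21.4%) and in chimera FAP-like cells (2.20%), and 0 such cells were found in the SD rat among LyEC-like, Schwann or glial-like, T or NK-like, tenocyte or fibroblast-like, neutrophil or monocyte-like and MP-like cells. Without such cells, C1qa lay between 1.63 and 6.89 CPM in these 3 chimera classes and at 7.304 and 2.24 in the SD rat pair. The 28-cell Schwann or glial-like cluster that held most of the C1q of its class had raised 9 of its own markers and 6 macrophage markers. What these few barcodes are was not tested.

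The level of C1q that rat RNA leaves in cells that cannot express it was read from the mouse cells. Rat C1qa, C1qb and C1qc rows had 44, 37 and 39 UMIs in 1847 mouse cells (2.61, 2.20 and 2.32 CPM), in 2.17%, 1.95% and 1.95% of cells. In mouse EC-like cells (median depth 6729 UMIs) the shares were 2.75%, 2.14% and 1.73%. Rat EC-like cells had C1qa in 2.71% (SD rat) and 2.91% (chimera rat) of cells, at median depths of 2591 and 4060 UMIs, and FAP-like cells in 2.66% and 2.97%. After thinning to 1000 UMIs, C1qa was found in 0.282% and 0.2315% of rat FAP-like cells, against 0.207% of mouse EC-like cells. In rat EC-like cells the thinned C1qa shares were higher, 1.87% and 1.31%, as were the levels (21.3 and 10.4 CPM, against 3.72 in mouse EC-like cells). For the other chains the thinned shares lay closer to those of mouse EC-like cells, with overlapping intervals. C1qb was at 0.831% (SD rat) and 1.46% (chimera rat) against 0.723%, and C1qc at 0.935% and 1.02% against 0.413%. Mouse FAP-like cells had rat C1qa in 0 of 128 cells. The SD rat library held no mouse cells to read such a level from, and the source of C1q in rat FAP-like cells was not tested. Without the cells holding all 3 chains, EC-like C1qa was 7.304 and 4.79 CPM. Rat Cfd left 27 UMIs (1.60 CPM), Serping1 38 (2.26 CPM), Cfb 11 and C3 1 in the mouse cells, all below the FAP-like levels of Cfd, Serping1 and Cfb in rat cells.

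**Figure D4:**
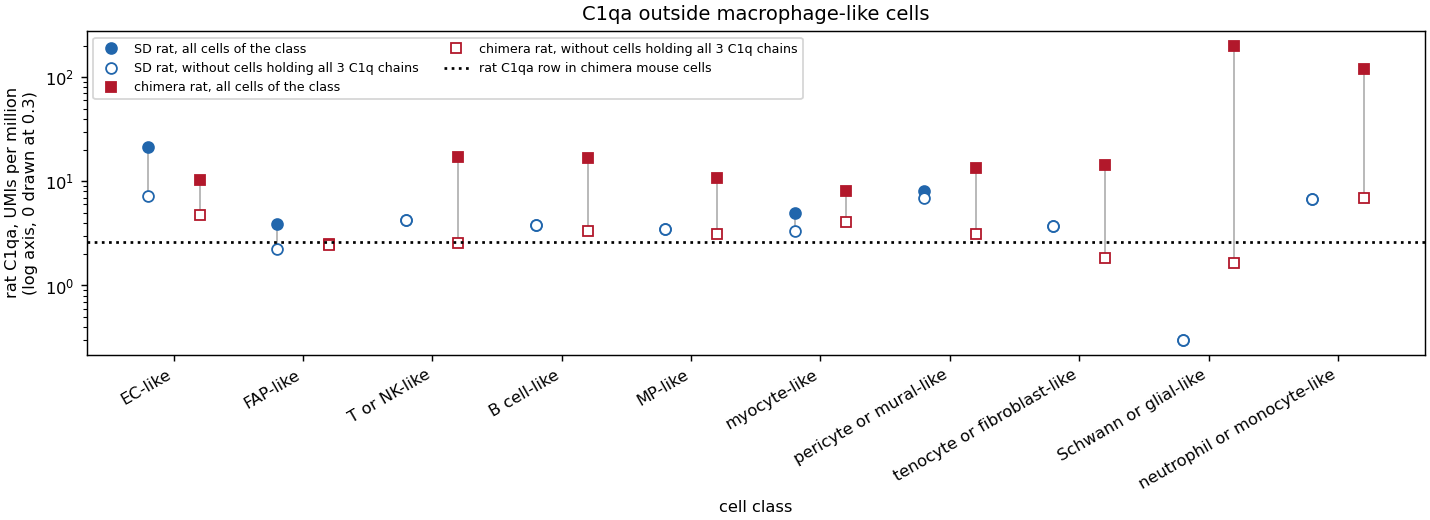
Rat C1qa (CPM, log axis) in cell classes other than macrophage-like, for SD rat cells (blue circles) and chimera rat cells (red squares), with all cells of the class (filled) and without the cells that held all 3 C1q chains (open). The dotted line is the rat C1qa row in chimera mouse cells, 2.61, and the largest drops are those of the chimera's Schwann or glial-like and neutrophil or monocyte-like cells, from 200 to 1.63 and from 120 to 6.89.

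Chimera rat cells were then set against SD rat cells within each class, to see whether complement genes differed between the animals. The chimera matrix lists genes of both species and the SD rat matrix rat genes alone, and the median gene was slightly lower in the chimera, with log2 ratios of -0.12 in macrophage-like, -0.11 in FAP-like and -0.09 in neutrophil or monocyte-like cells. In macrophage-like cells 0 of the 8 rat genes were past 2-fold (1, C3, with a species limit of 90%), where 4.74% of all genes were. The log2 ratios were -0.49 for C1qb (-0.53 to -0.46), -0.45 for C1qc (-0.48 to -0.41), -0.45 for Cfd (-0.49 to -0.40) and -0.25 for C1qa (-0.28 to -0.22). C1qb, C1qc and Cfd stayed below 0 under every alternative, but C1qa turned to 0.16 with doublets kept, 0.10 with fewer clusters and 0.07 with a minimum of 1000 UMIs. At the finer division, made separately in each population, the SD rat gave a group led by F13a1 alone. The chimera also gave groups led by Trem2 and by Ereg and Nos2. The undivided SD rat group had 290 CPM of Trem2, so the division does not show that the class was made up differently. The chimera group led by F13a1, a part of its class, had 4177 CPM of C1qb, 4539 of C1qc and 2117 of Cfd. The whole SD rat group had 4120, 4170 and 1930. A part is thus set against a whole, and what lies behind the ratios was not tested. Cfb (-0.11) and C3ar1 (0.04) had intervals that held 0. C3 was at -0.86 from 54 and 55 UMIs, and its sign turned under some alternatives, to 1.42 with a species limit of 90%.

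In FAP-like cells 0 of 7 genes were past 2-fold, against 5.66% of all genes, but with a species limit of 90% the 3 C1q chains were, at 1.90, 1.64 and 2.00. Cfb was at -0.46 (-0.55 to -0.37), with alternatives from -0.47 to -0.19, and Serping1 at -0.10 (-0.14 to -0.07), level with the class median. Cfd was at 0.05 (-0.14 to 0.24). In tenocyte or fibroblast-like cells Cfb was at -0.67 (-0.87 to -0.47), and 3 of 5 genes, the C1q chains, were past 2-fold higher, against 1.04% of all genes higher and 6.11% in either direction. Of the UMIs of those chains in the chimera, 86.2% lay in 3 cells.

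In neutrophil or monocyte-like cells 3 of 7 genes were past 2-fold, all higher in the chimera, against 7.70% of all genes in either direction and 2.18% higher. These were C1qa, C1qb and C1qc, with 277, 107 and 158 UMIs against 7, 2 and 3, log2 ratios of 4.13 (3.07 to 5.46), 4.57 (2.68 to 7.63) and 4.55 (2.97 to 6.84). The 8 cells with all 3 chains held 514 of those UMIs, and at the finer division 316 chimera cells of the class had 6.23 CPM of C1qa, against 7.96 in 120 SD rat cells. C3ar1 was at 0.83 (0.48 to 1.20), from 0.79 to 1.08 over the alternatives, and Cfd at -0.75 (-1.13 to -0.38). C3 was at -0.07 (-0.34 to 0.20).

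**Figure D5:**
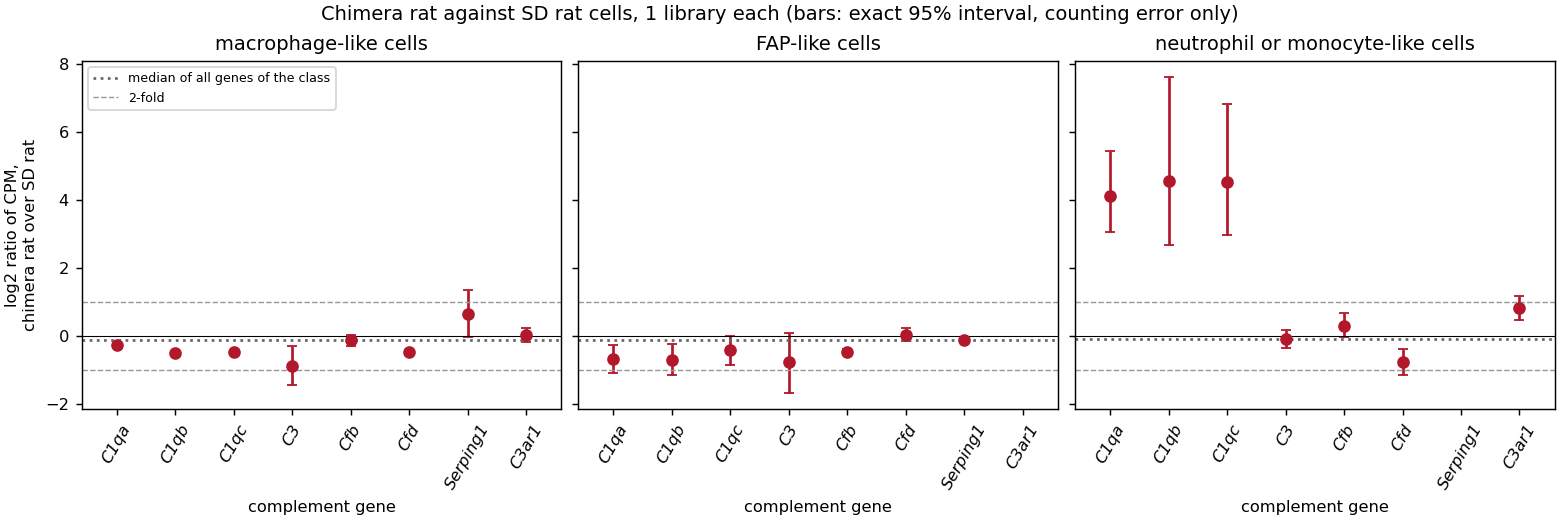
Log2 ratio of CPM, chimera rat over SD rat cells, for each gene with enough UMIs in macrophage-like, FAP-like and neutrophil or monocyte-like cells, with exact 95% intervals for counting error, the class median of all genes (dotted) and 2-fold (dashed). No gene passes 2-fold in the first 2 classes, although 1 and 3 do with a species limit of 90% and the signs of C1qa and C3 in macrophage-like cells turn under some alternatives, and the C1q chains lie between 4.13 and 4.57 in the third.

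The remaining classes had few complement UMIs, and C1q chains made up most of their genes past 2-fold. Past 2-fold were 5 of 6 genes in EC-like cells (background 10.8%), 2 of 3 in MP-like (5.23%), 4 of 5 in Schwann or glial-like (7.34%), 4 of 4 in T or NK-like (19.0%), 1 of 5 in pericyte or mural-like (8.07%), 1 of 5 in myocyte-like (11.8%) and 0 of 1 in lymphatic endothelial (LyEC)-like cells (8.82%). C1q chains made up 3 of the 5 genes in EC-like cells, lower in the chimera, both genes in MP-like cells, and 3 of 4 in Schwann or glial-like and in T or NK-like cells, higher in the chimera. In EC-like cells Serping1 was higher, at 1.02 (0.52 to 1.54) from 112 and 47 UMIs, but at -0.96 with doublets kept. In T or NK-like cells Serping1 was lower, at -2.63 (-3.46 to -1.78) from 32 and 22 UMIs in 701 and 93 cells. C1r, which like Serping1 was highest in FAP-like cells, was lower there too, at -3.87 from 39 and 63 UMIs, as were Cd55 (-2.54) and Cd59 (-1.92). The part of RNA from other cells in these values was not tested.

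Other genes of the pathway were read from a list of 50, of which 37 had a rat row and 25 at least 100 UMIs in SD rat cells. The proteases that C1q carries came from other cells than C1q itself. C1r had 685 CPM in SD rat and 544 in chimera FAP-like cells (94.02% and 90.1% of its UMIs), and C1s 336 and 269.5, whereas macrophage-like cells had 12.7 and 16.1 of C1r. Serping1, their inhibitor, thus shared the FAP-like cells with them. Macrophage-like cells had the lectin pathway ficolin Fcna (1019 and 899 CPM). The second ficolin, Fcnb, was found in neutrophil or monocyte-like cells (868 and 663 CPM).

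Regulators that protect host membranes and matrix had their highest levels in rat classes other than FAP-like. Cd55 and Cd59, which block C3 cleavage and pore formation, were highest in neutrophil or monocyte-like cells, with 445 and 591 CPM of Cd55 and 351 and 434 of Cd59. By UMIs, however, FAP-like cells were a large source. They held 5455 of 7093 Cd55 and 4718 of 7152 Cd59 UMIs in the SD rat. In chimera rat cells they held 4049 of 8086 and 3791 of 7857. Vitronectin (Vtn) was highest in pericyte or mural-like cells (978 and 684 CPM). Cd93, which the list holds as a receptor and not as a regulator, was highest in EC-like cells (584 and 373 CPM). Clusterin (Clu) was highest in LyEC-like cells of the SD rat (806 CPM) and in EC-like cells of the chimera (707 CPM, with 703 in its LyEC-like cells). Csmd1 had 501 CPM in SD rat Schwann or glial-like cells. Colec11 was counted in nearly every cell of all rat classes, from 988 to 2958 CPM in the SD rat, so this row may hold reads of another gene and is left as uncertain. Between the animals, 1 of 19 listed genes was past 2-fold higher (Fcnb, 4.42 from 191 and 5 UMIs) and 1 lower (Cd93, -1.50) in macrophage-like cells, where 4.74% of all genes were past it. In FAP-like cells 1 of 24 was higher and 2 lower, against 5.66% of all genes. With the mouse row added, Cd93 in FAP-like cells went from -1.03 to 0.27. In neutrophil or monocyte-like cells 0 of 16 were higher and 3 lower, against 7.70% of all genes. These were C5ar2 (-1.69), a second C5a receptor, Cd93 (-1.55) and Colec12 (-1.08), which was at -0.68 with the mouse row added.

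The genes whose levels followed each complement gene most closely over the 27 SD rat clusters of at least 50 cells were taken by Pearson's r of log2(CPM + 10), with r over 25 chimera rat clusters beside it. These clusters share 1 library, so r is a description. C1qa was followed by Ms4a4a (0.95 in the SD rat and 0.84 in the chimera), Cd163 (0.95 and 0.82) and Ltc4s (0.95 and 0.83). C1qb was followed by Ms4a4a (0.96 and 0.87), Cd163 (0.95 and 0.88) and Htr1b (0.95 and 0.94), and C1qc by Cd163 (0.94 and 0.86), Ms4a4a (0.93 and 0.84) and Ifnb1 (0.93 and 0.88). Cd163 was itself a marker of the macrophage-like class, as was Adgre1 below, and Gsn below was a marker of the FAP-like class. Cfd was followed by Apobec1 (0.95 and 0.92), Ms4a6a (0.94 and 0.91) and Adgre1 (0.94 and 0.88), and C3ar1 by Slc11a1 (0.99 and 0.98), a metal transporter of phagocytes, Tfec (0.98 and 0.99) and Lilrb1 (0.97 and 0.99). C3 was followed by the receptors Clec7a (0.98 and 0.91) and Clec12a (0.98 and 0.83) and by ENSRNOG00000064524 (0.98 and 0.89). Serping1 was followed by Gsn (0.96 and 0.93) and the collagen genes Col4a4 (0.95 and 0.95) and Col3a1 (0.95 and 0.94). Cfb had the weakest companions, with 0.80 and 0.77 for Ugt1a3, 0.77 and 0.62 for Jdp2 and 0.76 and 0.83 for Xdh.

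Among the complement genes themselves, the C1q chains were closest (r of 0.96 to 0.98 in the SD rat and 0.97 to 0.98 in the chimera). Cfd followed C1qa with 0.90 and 0.93, and C3 followed C3ar1 with 0.83 and 0.87. Serping1 had a weak negative r with C1qa, of -0.28 and -0.38.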

How the data were processed

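The authors assembled a combined mouse and rat reference and mapped the reads to it, with rat genes alone in the SD rat matrix, and the deposited matrices hold raw UMI counts per gene and barcode with no normalization. The submitters' processing notes name Cell Ranger 7.1.0, GRCm39 and mRatBN7.2.

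Barcodes were kept with 500 UMIs or more, 200 genes or more and a mitochondrial share of 20% or less, over the 13 protein genes of each species (8980 of 10117 in the SD rat, 12174 of 13299 in the chimera). Scores of simulated doublets marked 164 and 444 barcodes, which were left out. Each population was clustered with scanpy 1.11.5 and leidenalg 0.10.2 (2000 variable genes without complement genes, 30 components, 15 neighbours, resolution 1). Clusters were named from 18 marker lists where at least 3 markers were found in 10% of cells and were 2-fold above the rest. The names were rebuilt here and are not the study's, and their rules were adjusted after the clusters had been seen. The complement genes and the lists were chosen with earlier results of these data known.

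UMIs were summed per class and divided by the class total. With 1 library per group there was no test. Intervals are 95% Poisson and binomial (scipy 1.17.1), and 3 counts stand for the limit that 0 allows. Class ratios use genes with at least 50 summed UMIs and classes of at least 50 cells in both rat populations. Besides the 9 complement genes, the text names the 3 genes with the highest r per gene (at least 100 UMIs, pseudocount of 10 CPM) and up to 12 genes of the 50-gene list with the highest levels (1 of them is not reported here), and other genes named were chosen after their values were seen. Alternatives were resolutions of 0.5 and 2, doublets kept, a species limit of 90%, a minimum of 1000 UMIs, totals without mitochondrial and 18S UMIs, mouse rows added, centring on the class median, and other minimum UMIs. The scripts were tested on simulated counts. Figures were drawn with matplotlib 3.10.9.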

Additional observations from a re-analysis of the deposited data

Results flagged for a closer look

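The 1653 chimera barcodes between the species limits (median 4644 UMIs), which no comparison used, also held complement UMIs, more than the 3 counts that a value of 0 allows. On rat rows they had 649 UMIs of C1qa, 461 of C1qb and 532 of C1qc, 302 of Cfd, 180 of Cfb, 51 of C3, 666 of Serping1 and 35 of C3ar1. On mouse rows they had 113 UMIs of C1qa, 177 of C1qb and 85 of C1qc, 17 of Cfb, 90 of C3, 442 of Serping1, 18 of C3ar1 and 26 of C5ar1. Barcodes with C1qa UMIs of both species were 0, beside 77 with the rat row and 4 with the mouse row. Serping1 was the gene most often found with both rows, in 23 barcodes, beside 288 with the rat row and 64 with the mouse row. The mouse Cfd row had 0 UMIs in these barcodes too. What these barcodes are was not tested.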

How the results depend on the processing

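The share of C1q UMIs in macrophage-like cells was 98.0% (SD rat) and 95.2% (chimera rat) at resolution 0.5 and 93.5% and 90.1% at resolution 2. It was 97.8% in the SD rat with doublets kept, 94.2% and 89.7% with a minimum of 1000 UMIs, and 94.0% in chimera rat cells with a species limit of 90%. In mouse cells it was 99.6% at resolution 2, where a macrophage-like cluster appeared, against 0% otherwise. The share of Cfd in these cells was 89.7% and 87.0% at resolution 0.5, and in the SD rat 86.3% at resolution 2, 89.4% with doublets kept and 88.6% with a minimum of 1000 UMIs. With the species limit of 90%, it was 86.5% in chimera rat cells and the share of C3 in FAP-like cells 1.79%. The number of complement genes past 2-fold became 1 in MP-like, 2 in myocyte-like and 3 in pericyte or mural-like cells at resolution 0.5. It became 1 in MP-like and 1 in neutrophil or monocyte-like cells both at resolution 2 and with a minimum of 1000 UMIs. With doublets kept it was 1 in MP-like, 3 in myocyte-like, 3 in pericyte or mural-like and 0 in tenocyte or fibroblast-like cells. With the species limit of 90% it was 3 in EC-like, 3 in FAP-like, 0 in MP-like, 1 in macrophage-like and 4 in pericyte or mural-like cells. It was 0 in myocyte-like cells without mitochondrial and 18S UMIs, and 2 in EC-like and 3 in pericyte or mural-like cells after centring. Of 401 single log2 ratios under an alternative, 308 moved by less than their interval and 88 by more, and 5 that were past 2-fold changed sign. These were Cfd in myocyte-like cells (0.603 at resolution 2), Serping1 in EC-like cells (-0.962 with doublets kept) and C1qa, C1qb and C1qc in EC-like cells (0.969, 0.923 and 1.00 with the species limit of 90%). The cause was not tested.

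The share of all genes past 2-fold with at least 200 summed UMIs was 3.14% in macrophage-like, 3.33% in FAP-like, 6.34% in neutrophil or monocyte-like, 3.83% in tenocyte or fibroblast-like, 8.24% in EC-like, 3.82% in MP-like, 6.21% in Schwann or glial-like, 13.1% in T or NK-like, 5.86% in pericyte or mural-like, 7.36% in myocyte-like, 5.89% in LyEC-like, 11.4% in B cell-like and 7.81% in mast-like cells. With no minimum it was 25.2%, 20.5%, 35.5%, 28.0%, 30.5%, 27.3%, 32.9%, 45.9%, 28.6%, 35.7%, 34.3%, 50.2% and 44.3% in the same order. No paired analysis was possible because each group has 1 library. Counts of under 10 UMIs, as for C1q in most SD rat classes other than macrophage-like, give wide intervals, and differences between the animals carry animal, litter and library together, which cannot be told apart.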
